A study of Mus musculus with 19 samples.

Results

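RNA of 10 mouse genes from 3 groups of oocyte genes was followed in oocytes and 2cell embryos of females labelled heterozygous or knock-out for CPEB3. The genes were chosen by name as *Nlrp9a*, *Nlrp9b*, *Nlrp9c*, *Nlrp14*, *Oog1*, *Oog2*, *Oog3*, *Oog4*, *Oosp1* and *Oosp2*, and all 10 were found among the 25891 genes of the deposited table. MII oocytes, mature eggs arrested before fertilization, were compared with 2cell embryos, and the genotype of each library is that of its label. For 2cell embryos it stands for the oocyte they came from, not for the embryo itself. The paper used wild-type males with knock-out females when it followed embryo development, and does not name the males of the sequenced embryos. There were 5 libraries labelled CPEB3+/- and 5 labelled CPEB3-/- from MII oocytes, and 5 labelled CPEB3+/- and 4 labelled CPEB3-/- from 2cell embryos. The females were of the BL6 strain, 6 to 10 weeks old, and all had received 5 IU of PMSG and, 48 h later, 5 IU of hCG, the hormones used for superovulation. Embryos came from mated females as zygotes at 17 h after hCG, grew in M16 medium and were taken at 37 h. Each library was made from 5 cells. In the CPEB3-/- females, both *Cpeb3* alleles were floxed and Cre was driven by the *Zp3* promoter, which is active in growing oocytes, so the deletion was limited to the oocyte and started after its growth had begun. The libraries labelled CPEB3+/- are the controls, and their labels say no more than heterozygous.

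CPEB proteins bind U-rich elements in the 3′ ends of mRNAs and control the length of their poly(A) tails and their translation. A growing oocyte stores maternal RNA, stops transcription before it matures and clears much of that RNA around fertilization, while the embryo starts its own transcription. Nlrp proteins carry a nucleotide-binding NACHT domain and leucine-rich repeats. Several of them are found almost only in oocytes, where *Nlrp14* is a maternal-effect gene, one whose product the egg supplies to the early embryo, while *Nlrp9b* is also known as a sensor of viral RNA in the intestine. *Oog1* to *Oog4* code for leucine-rich oogenesins of the PRAME family, and *Oosp1* and *Oosp2* for small secreted proteins of the oocyte.

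Some of the 10 genes are neighbours. In GRCm38, *Oog2* (chr4:144190719-144196934, + strand) and *Oog3* (chr4:144157557-144162663, - strand) are 28.1 kb apart, *Oog4* (chr4:143437164-143450324, - strand) lies 707 kb from *Oog3*, and *Oog1* is on chromosome 12 (chr12:87602688-87608850, + strand). *Nlrp9a* (chr7:26535023-26575615, + strand) and *Nlrp9c* (chr7:26322473-26403700, - strand) are 131 kb apart, and *Nlrp9b* (chr7:19991465-20073306, + strand) and *Nlrp14* (chr7:107166990-107198102, + strand) are on the same chromosome. *Oosp1* (chr19:11667460-11691150, - strand) and *Oosp2* (chr19:11647279-11660559, - strand) are 6.90 kb apart. All 10 are protein-coding in the GENCODE vM21 annotation, with 4 to 11 exons.

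The upstream sequences of the 4 *Oog* genes are shown because *Oog1*, *Oog2* and *Oog3* are the genes called lower in MII oocytes below, and because the 4 sequences are much alike. The 150 bases before the RefSeq start (GRCm38.p6) read 5′ to 3′ on the gene's strand as follows, with CAGCTG, an E-box, in capitals (chr12:87602515-87602664 for *Oog1*, chr4:144190567-144190716 for *Oog2*, chr4:144162652-144162801 for *Oog3* and chr4:143450325-143450474 for *Oog4*).
Oog1: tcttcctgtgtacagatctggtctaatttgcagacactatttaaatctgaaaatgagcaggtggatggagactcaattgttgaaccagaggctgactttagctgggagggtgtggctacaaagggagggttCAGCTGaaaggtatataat
Oog2: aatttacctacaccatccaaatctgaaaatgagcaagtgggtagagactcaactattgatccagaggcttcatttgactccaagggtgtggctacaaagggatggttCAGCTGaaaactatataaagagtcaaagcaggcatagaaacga
Oog3: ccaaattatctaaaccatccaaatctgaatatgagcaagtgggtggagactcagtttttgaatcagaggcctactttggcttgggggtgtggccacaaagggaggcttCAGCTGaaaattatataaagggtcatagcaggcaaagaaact
Oog4: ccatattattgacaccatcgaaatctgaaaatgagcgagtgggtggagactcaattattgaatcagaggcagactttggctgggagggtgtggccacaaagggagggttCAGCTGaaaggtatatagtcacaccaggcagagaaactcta
Promoters were taken as the 250 bases before the start for alignment and for the motif search. The 4 *Oog* promoters were 76.1 to 83.8% identical by pair. All 4 held CAGCTG, which reads the same on both strands, and so did *Oosp2*, which makes 5 of the 9 members with a matched promoter. The motif was picked after the sequences had been seen, and 13.0% of 32851 RefSeq promoters of this length held it. The general E-box, CANNTG, which includes CAGCTG, was in 9 of the 9 matched promoters and in 66.2% of all promoters. TAATTG, searched on both strands, was in 4 of the 9 (*Nlrp9a*, *Nlrp9b*, *Oog3* and *Oog4*) and in 7.17% of all promoters. No promoter was matched for *Nlrp14*.

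*Nlrp9a* and *Nlrp9c* are shown because their upstream sequences are nearly the same, with 96.1% identity over 203 aligned bases, while that of *Nlrp9b* was 57.2% and 49.4% identical to them. Their 150 bases before the start (chr7:26534873-26535022 and chr7:26403701-26403850, GRCm38.p6) carry an E-box, CAGGTG, in capitals.
Nlrp9a: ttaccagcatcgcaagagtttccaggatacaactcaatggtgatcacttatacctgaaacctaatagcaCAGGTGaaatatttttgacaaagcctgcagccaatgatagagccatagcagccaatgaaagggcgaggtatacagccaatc
Nlrp9c: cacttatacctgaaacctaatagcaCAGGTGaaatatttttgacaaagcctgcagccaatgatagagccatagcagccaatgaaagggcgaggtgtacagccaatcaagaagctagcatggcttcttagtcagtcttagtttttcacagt
The E-box starts at position -81 from the annotated start in *Nlrp9a* and at -125 in *Nlrp9c*.

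The 3′ untranslated regions of the 10 genes are short, 138 to 337 bases against a median of 876 bases over 16517 genes. UUUUAU, the classical element bound by CPEB proteins, was found in those of *Nlrp9a*, *Nlrp9c*, *Oog1*, *Oog2* and *Oog3*, and the variant UUUUAAU in that of *Oosp1*. Windows of 30 bases around the element nearest the 3′ end are shown as RNA, with the element in capitals, because the genes called lower between genotypes below are among these 6.
Nlrp9a: agguuuauccuuUUUUAUguuucuccuaua
Nlrp9c: ggcuuauccuuuUUUUAUguuucuccugua
Oog1: auagaagcaccaUUUUAUgagacuggccca
Oog2: uguuaagcacuaUUUUAUucucuaggauua
Oog3: uaauaaauguguuaacuuugUUUUAUuuuu
Oosp1: agcugucccugcUUUUAAUuguauaaaauc
*Nlrp9b*, *Nlrp14*, *Oog4* and *Oosp2* had neither element. UUUUAU was held by 50.7% and either element by 55.9% of the 16517 regions, searched on the transcript strand. A match of these letters is no evidence of binding. With 6 of 10 genes against 55.9% the share was close to that of all genes, whose regions are mostly longer. The comparison was not matched for length.

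The values are FPKM, fragments per kilobase of exon, scaled to the number of mapped fragments, so each is relative to the other RNA of its library, and in such pooled cells fewer cells with a transcript and less RNA per cell cannot be told apart. Depth was estimated from the spacing of low values at 17.2 to 23.6 M fragments per library (M, 10 to the power of 6). *Oog3* then rests on 7792 to 43234 fragments per library and *Nlrp9b* in 2cell embryos on 36 to 60. The lowest are *Oosp2* in 2cell embryos, with 13 to 35. *Cpeb3* itself was higher in the MII libraries labelled CPEB3-/- (0.162 ± 0.0325 FPKM, SD, n = 5) than in those labelled CPEB3+/- (0.0755 ± 0.0240 FPKM, n = 5), by 0.53 on the log2 scale (limma adjusted p = 0.0144). With 0.1 added to each value before the log, this was under 1.5-fold and so not called. The values are close to that pseudocount and to the filter of 0.1 FPKM. *Cpeb3* passed the filter through the libraries labelled CPEB3-/-, at 0.131 to 0.215 FPKM beside 0.0450 to 0.101 FPKM in CPEB3+/-. Its p therefore carries little weight. The targeted gene was thus not lower in the libraries labelled CPEB3-/-, and each genotype below is the one the label gives. Which exons were floxed is not given in the sources used here, so it is not known whether the listed value covers the deleted part. The summed FPKM of 10 oocyte markers was 648 to 881 in MII libraries labelled CPEB3+/- and 548 to 628 in those labelled CPEB3-/-, and 1 of the 10, *Mos*, was called lower. The sum of 10 markers of the 2cell embryo was 38.3 to 45.8 and 47.0 to 62.7 in the same groups, with *Zscan4c*, *Zscan4d* and *Zscan4f* called higher. In 2cell libraries the oocyte markers summed to 82.1 to 146 and 89.2 to 115 FPKM, with 0 of 10 called, and the 2cell markers to 682 to 1306 and 667 to 877 FPKM, with *Zscan4d* called lower (-1.02, limma adjusted p = 0.0402). Of 10 cumulus and granulosa markers 8 were in the table, and they summed to at most 0.50 FPKM in any MII and 1.11 FPKM in any 2cell library. Of the 2 tested in 2cell embryos, *Tnfaip6* was called lower in those labelled CPEB3-/- (-0.999, limma adjusted p = 0.0152). It lay near the filter, which it passed through CPEB3+/- (0.217 to 0.427 FPKM, beside 0.0372 to 0.133 FPKM in CPEB3-/-), so this call carries little weight. Of 6 blood markers 2 were in the table, *Hba-a1* and *Hba-a2*, with sums up to 0.428 FPKM in MII and between 46.2 and 146 FPKM in 2cell libraries. The part of these markers in the results below was not tested.

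Genotypes were compared within each stage by limma on log2(FPKM + 0.1) after scaling. A gene was called when its p, adjusted by Benjamini-Hochberg over all genes tested, was under 0.05 and its change over 1.5-fold. All fold changes below are on the log2(FPKM + 0.1) scale after scaling, and n is the number of libraries. Percentages of a group mean use FPKM as deposited, without that scaling. The labels do not say whether libraries of a group came from separate females, so p-values measure only the spread between these libraries. In MII oocytes 3 of the 10 genes were called lower and 0 higher in libraries labelled CPEB3-/-, where 7.29% of the 10515 genes tested were called lower. In 2cell embryos 4 of 10 were called lower and 0 higher, against 9.53% of 14051. Scaled to the column sum, only *Oog3* of these 4 was called in 2cell embryos, and after correction for GC content only *Oog2* and *Oog3* were. The median difference of the 10 was -0.54 in MII oocytes, beside 0.01 over all genes tested, and -0.63 beside -0.00 in 2cell embryos. The genes higher in libraries labelled CPEB3-/- made up 43.4% of all called in MII oocytes and 47.2% in 2cell embryos. Scaled to the column sum, these shares were 70.1% and 81.0%, and 57.1% in MII oocytes with the values as deposited.

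**Figure D1:**
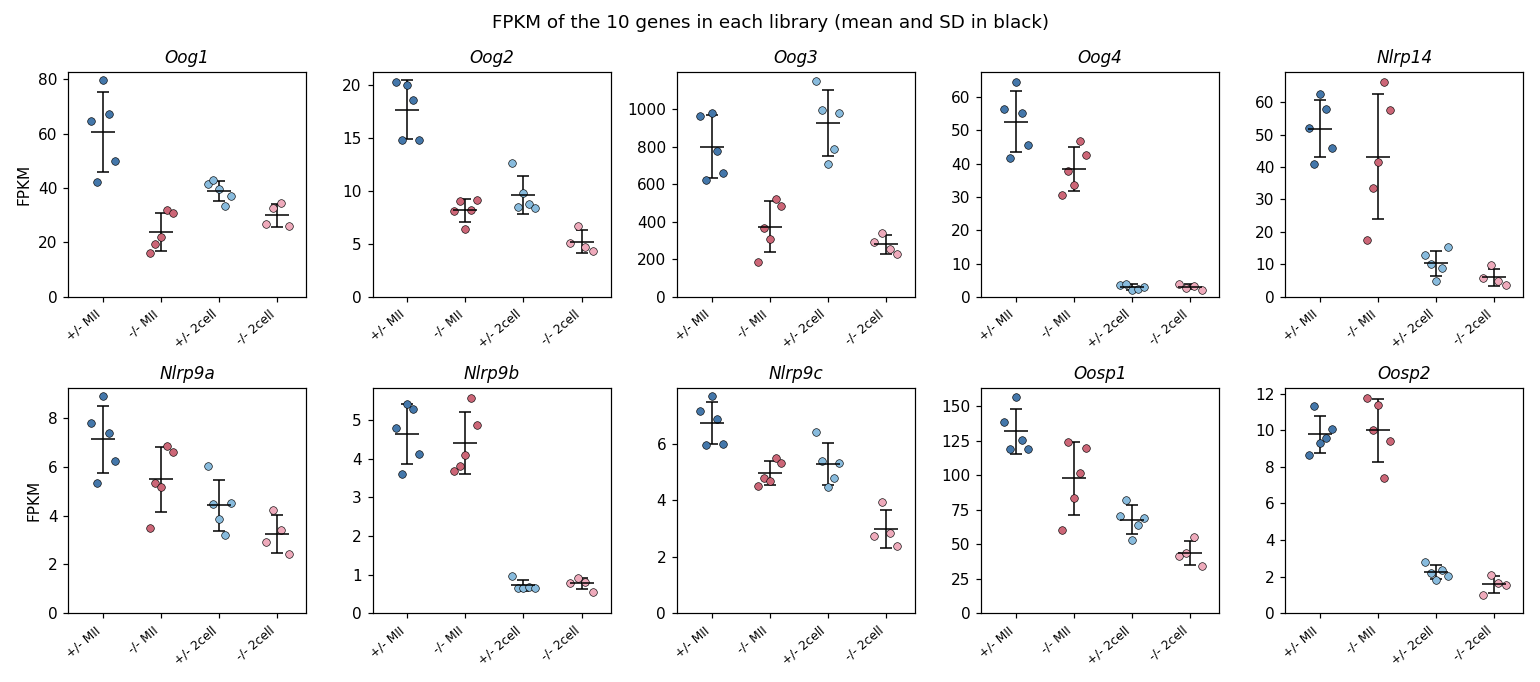
FPKM of each of the 10 genes (vertical axes, each from 0) in every library of the 4 groups, +/- for libraries labelled CPEB3+/- and -/- for those labelled CPEB3-/-. Points are libraries, black bars the mean and SD (n = 5, 5, 5 and 4). *Oog1*, *Oog2*, *Oog3* and *Nlrp9c* show no overlap between genotypes in MII oocytes, while those of *Nlrp9b* and *Oosp2* overlap there.

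*Oog1*, *Oog2* and *Oog3* had less RNA in MII oocytes labelled CPEB3-/-, at 39.5, 46.2 and 46.6% of the mean of CPEB3+/-. *Oog3* was the most abundant of the 10 in every group. It stood at 965, 622, 981, 775 and 663 FPKM in the MII libraries A to E labelled CPEB3+/- and at 183, 369, 309, 519.6 and 486 in A to E labelled CPEB3-/-. Every CPEB3-/- library lay below every CPEB3+/- library, and library A was the lowest of all. *Oog3* was 2.41-fold lower, a log2 difference of -1.27 with an SE of 0.307 (limma adjusted p = 0.0174). *Oog1* was measured at 64.7, 42.4, 79.5, 67.0 and 49.8 FPKM in the CPEB3+/- and at 16.1, 19.3, 21.8, 31.9 and 30.7 FPKM in the CPEB3-/- libraries. The groups again did not overlap, and *Oog1* was 2.73-fold lower as listed, -1.45 on the log2 scale (SE 0.262, limma adjusted p = 0.00513). Most of its sequence is shared with *Gm2042*, *Gm10436* and *Gm13023*, described below, whose differences were -0.93, -0.85 and -0.84. *Oog2* stood at 20.3, 14.8, 20.01, 18.5 and 14.8 FPKM and at 8.09, 9.01, 6.38, 8.20 and 9.17 FPKM in the same order. Its CPEB3-/- libraries lay close together, none above 9.17 FPKM, and its fall was 2.30-fold (-1.20, SE 0.165, limma adjusted p = 0.00125). The 3 calls held with each MII library left out in turn and after correction for GC content, where the differences were -1.27 for *Oog1*, -1.01 for *Oog2* and -1.08 for *Oog3*. With the library letters as a replicate block, described below, *Oog3* was not called (limma adjusted p = 0.0667).

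*Oog4* did not pass the test in MII oocytes. It was listed at 56.4, 41.8, 64.5, 55.2 and 45.6 FPKM in the CPEB3+/- libraries and at 30.6, 37.8, 33.6, 47.0 and 42.7 FPKM in those labelled CPEB3-/-. The highest CPEB3-/- values overlapped the lowest of CPEB3+/-, and the difference was -0.56 (95% confidence interval -0.97 to -0.14, limma adjusted p = 0.0579). Leaving out CPEB3+/- library B gave an adjusted p of 0.0345 and leaving out CPEB3-/- library D one of 0.0387, with differences of -0.66 and -0.65. The sum of *Oog1* to *Oog4*, most of it *Oog3*, was 932 ± 191 FPKM for CPEB3+/- and 444 ± 150 FPKM for CPEB3-/- at the MII stage (SD, n = 5 each), with ranges that did not overlap (721 to 1145 and 238 to 607).

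In 2cell embryos *Oog3* and *Oog2* were again lower in libraries labelled CPEB3-/-. *Oog3* stood at 1151, 996, 710.2, 788 and 979 FPKM in libraries A to E labelled CPEB3+/- and at 293, 341, 254 and 229.9 in A to D labelled CPEB3-/-. The groups were far apart, and the fall of 3.40-fold (-1.77, SE 0.191, limma adjusted p = 0.00115) was the largest of the 10 at this stage. *Oog2* was measured at 12.7, 8.51, 9.76, 8.77 and 8.39 FPKM and 5.11, 6.72, 4.73 and 4.30 FPKM. Its groups did not overlap, and it was 1.89-fold lower (-0.92, SE 0.184, limma adjusted p = 0.00907), while scaling to the column sum gave -0.58 with an adjusted p of 0.0678 and ended the call.

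*Oog1* and *Oog4*, by contrast, were not called at the 2cell stage. *Oog1* was listed at 41.5, 43.0, 39.7, 33.4 and 36.9 FPKM and at 26.7, 32.7, 34.4 and 26.0 FPKM, ranges that overlapped at 1 library, for a difference of -0.43 (95% confidence interval -0.74 to -0.11, limma adjusted p = 0.0575). *Oog4* was far below its MII level in both genotypes, at 3.55, 3.98, 2.05, 2.37 and 3.09 FPKM and 3.80, 2.82, 3.30 and 2.11 FPKM. Its difference of -0.04 had an interval of -0.58 to 0.51, which holds changes close to 1.5-fold in either direction. The sum of the 4 *Oog* genes was 977 ± 179 FPKM in CPEB3+/- and 318 ± 51.4 FPKM in CPEB3-/- 2cell libraries, without overlap (762 to 1209 and 262 to 383).

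Of the *Nlrp9* genes, *Nlrp9c* was lower in the libraries labelled CPEB3-/- at both stages, under 1.5-fold in MII oocytes and over it in 2cell embryos. In MII libraries it stood at 7.18, 5.97, 7.72, 6.89 and 6.02 FPKM for CPEB3+/- and 4.51, 4.79, 4.70, 5.52 and 5.32 FPKM for CPEB3-/-. The groups did not overlap, but the difference of -0.53 (SE 0.134, limma adjusted p = 0.0206) was 1.44-fold and so was not called. In 2cell libraries it stood at 6.44, 5.41, 4.47, 4.80 and 5.31 FPKM and 2.74, 3.95, 2.85 and 2.38 FPKM, without overlap. It was called 1.82-fold lower there (-0.86, SE 0.187, limma adjusted p = 0.0123). The call for *Nlrp9c* ended after correction for GC content (-0.45, adjusted p = 0.0842) and after scaling to the column sum (-0.53, adjusted p = 0.0660).

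*Nlrp9a* and *Nlrp9b* were not called at either stage. *Nlrp9a* was listed at 7.79, 5.33, 8.91, 7.37 and 6.24 FPKM in the MII libraries labelled CPEB3+/-, at 3.51, 5.35, 5.17, 6.84 and 6.61 FPKM in those labelled CPEB3-/-, and at 6.02, 4.49, 3.86, 3.19 and 4.53 FPKM and 2.90, 4.23, 3.41 and 2.44 FPKM in the 2cell libraries. Its groups overlapped at both stages, with differences of -0.48 (limma adjusted p = 0.155) and -0.47 (adjusted p = 0.172). Its 95% confidence intervals, -0.99 to 0.03 and -0.98 to 0.03, hold a fall of the size seen for *Nlrp9c*. *Nlrp9b* was listed at 4.81, 3.60, 5.43, 5.29 and 4.13 FPKM and 3.68, 3.81, 4.10, 5.58 and 4.89 FPKM in MII oocytes, and at 0.967, 0.662, 0.639, 0.670 and 0.660 FPKM and 0.792, 0.916, 0.817 and 0.554 FPKM in 2cell embryos. The genotypes ran through each other at both stages, and the intervals of the *Nlrp9b* difference were -0.58 to 0.23 at the MII stage and -0.40 to 0.48 at the 2cell stage. Summed, the 3 *Nlrp9* genes gave 18.5 ± 2.86 and 14.9 ± 2.50 FPKM in MII oocytes and 10.4 ± 1.89 and 7.0 ± 1.57 FPKM in 2cell embryos, with overlap at both stages.

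*Nlrp14*, the maternal-effect gene of the group, varied widely between MII libraries labelled CPEB3-/-. It stood at 52.0, 40.9, 62.5, 58.0 and 45.9 FPKM in libraries A to E labelled CPEB3+/- and at 17.5, 33.5, 41.6, 66.2 and 57.4 FPKM in A to E labelled CPEB3-/-. The CPEB3-/- libraries held both the lowest value, A, and the highest, D, and the difference of -0.48 did not pass (95% confidence interval -1.25 to 0.28, limma adjusted p = 0.330). Without library A it was -0.17. In 2cell embryos *Nlrp14* was listed at 12.8, 9.99, 5.00, 8.77 and 15.2 FPKM and 5.74, 9.70, 4.91 and 3.66 FPKM. The groups overlapped, with a difference of -0.82 (interval -1.64 to 0.00, limma adjusted p = 0.147). It was called only without CPEB3+/- library C, the lowest of its group, with -1.07 and an adjusted p of 0.0383.

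*Oosp1*, the second most abundant gene of the 10 in all groups, was called lower in 2cell embryos labelled CPEB3-/-. In MII oocytes it stood at 138, 119, 157, 125 and 119 FPKM in the CPEB3+/- and at 60.0, 124, 83.5, 102 and 119.7 FPKM in the CPEB3-/- libraries, which overlapped. The difference of -0.57 had an interval of -1.06 to -0.08 and a limma adjusted p of 0.0903. In 2cell embryos it stood at 70.8, 82.0, 52.8, 64.0 and 69.2 FPKM and 41.1, 43.5, 55.1 and 34.2 FPKM. Library C of each genotype brought the groups to overlap, and the fall was 1.61-fold (-0.69, SE 0.181, limma adjusted p = 0.0257). The call was lost with CPEB3+/- library B or E or CPEB3-/- library A, B or D left out (adjusted p from 0.0501 to 0.0683), with quantile scaling (0.0527) and after correction for GC content (-0.40, 0.116). It also ended when scaled to the column sum (-0.35, 0.125), and with a filter of 1 FPKM, where the fall of 0.58 was under 1.5-fold.

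*Oosp2*, beside *Oosp1* on chromosome 19, was not called at either stage. It was listed at 8.64, 11.3, 9.30, 9.61 and 10.1 FPKM and 11.8, 10.0, 11.4, 7.38 and 9.42 FPKM in MII oocytes, where it had the narrowest interval of the 10, -0.32 to 0.16 around -0.08. In 2cell embryos it was listed at 2.81, 2.22, 1.83, 2.36 and 2.04 FPKM and 1.01, 2.09, 1.63 and 1.54 FPKM, with overlap and a difference of -0.56 (interval -1.07 to -0.06, limma adjusted p = 0.107). The sum of *Oosp1* and *Oosp2* was 142 ± 15.5 and 108 ± 25.6 FPKM in MII oocytes and 70.0 ± 10.8 and 45.0 ± 8.80 FPKM in 2cell embryos.

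Counted without the test, 4 of the 10 genes (*Oog1*, *Oog2*, *Oog3* and *Nlrp9c*) had every MII library labelled CPEB3-/- below every one labelled CPEB3+/-, where 7.57% of all genes tested did. In 2cell embryos 3 of 10 did (*Oog2*, *Oog3* and *Nlrp9c*), against 9.56%.

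**Figure D2:**
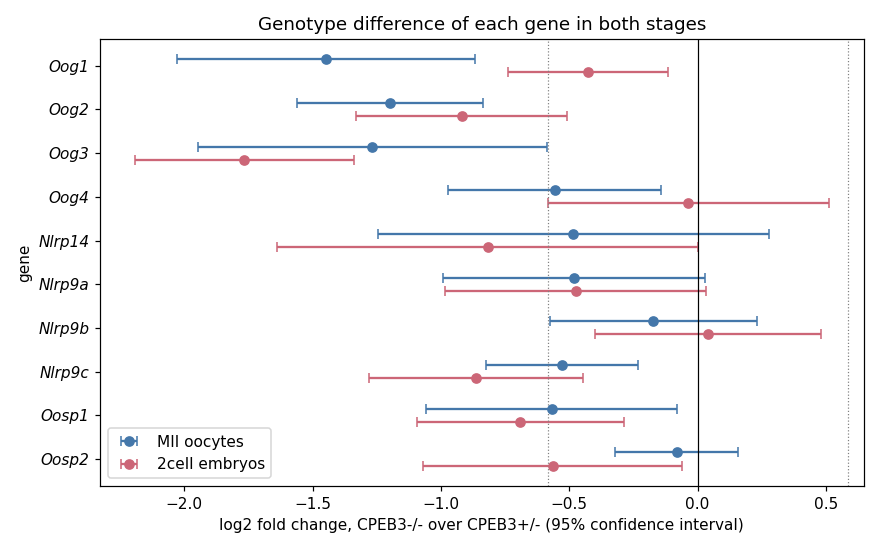
Log2 fold change of libraries labelled CPEB3-/- over those labelled CPEB3+/- (horizontal axis) for each gene in MII oocytes and 2cell embryos, with 95% confidence intervals of the limma fit. Dotted lines mark 1.5-fold. *Oog3* and *Oog2* lie left of the line at both stages, *Oog1* in MII oocytes with -1.45, and *Nlrp9c*, *Oosp1* and the uncalled *Nlrp14* in 2cell embryos.

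From the MII oocyte to the 2cell embryo most of the 10 genes lost RNA, but to very different degrees. The stages were compared in 1 limma fit of all 19 libraries. The percentages of the MII mean are of FPKM as deposited, while the log2 differences are of scaled libraries, so the 2 can differ. In libraries labelled CPEB3+/-, 8 of 10 genes were called lower in 2cell embryos and 0 higher, where 28.2% of the 15786 genes tested were called lower. In libraries labelled CPEB3-/- it was again 8 of 10 and 0, against 27.0%. Genes higher in 2cell embryos made up 57.6 and 58.6% of all calls in the 2 genotypes, and 41.5 and 41.6% with quantile scaling. *Oog4* lost the most, with a 2cell mean of 5.71% of the MII mean in CPEB3+/- and 7.84% in CPEB3-/- (log2 differences -4.34 and -3.79, SE 0.214 and 0.227). *Nlrp9b* kept 15.5 and 17.4%, *Nlrp14* 19.98 and 13.9%, and *Oosp2* 23.0 and 15.7%. These 4 were below every MII value in all 2cell libraries of both genotypes.

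The other Nlrp and Oosp genes fell less. *Oosp1* kept 51.4% in CPEB3+/- and 44.4% in CPEB3-/-, and *Nlrp9a* 62.0 and 59.1%. *Nlrp9c* kept 78.3% in CPEB3+/-, a difference of -0.58 that passed the p threshold (limma adjusted p = 0.00275) but was under 1.5-fold, and scaling to the column sum gave -1.12 and quantile scaling -0.82, both called. In CPEB3-/- it kept 60.0% and was called lower (-0.89, SE 0.165).

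Among the oogenesins, *Oog3* stayed high. Its 2cell mean was 115% of the MII mean in CPEB3+/- (-0.02, 95% confidence interval -0.57 to 0.54, limma adjusted p = 0.952) and 74.8% in CPEB3-/- (-0.50, interval -1.09 to 0.09, adjusted p = 0.120). *Oog3* was called lower with quantile scaling in both genotypes (-0.70 and -0.80), and in CPEB3-/- when scaled to the column sum (-0.91) or without MII library A (-0.75). *Oog2* fell to 54.4 and 63.8%. *Oog1* was called lower in CPEB3+/- (64.1%, -0.84, SE 0.219, limma adjusted p = 0.00218). In CPEB3-/- it stood at 125% (0.20, interval -0.28 to 0.69, adjusted p = 0.440), a direction that changed with the scaling, with -0.21 for *Oog1* when scaled to the column sum and -0.00 with quantile scaling. Summed with the 3 genes that share its sequence, *Oog1* stood at 339 ± 66.6 FPKM in MII and 333 ± 86.7 FPKM in 2cell libraries labelled CPEB3+/-, and at 187 ± 35.8 and 195 ± 39.9 FPKM in those labelled CPEB3-/-.

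**Figure D3:**
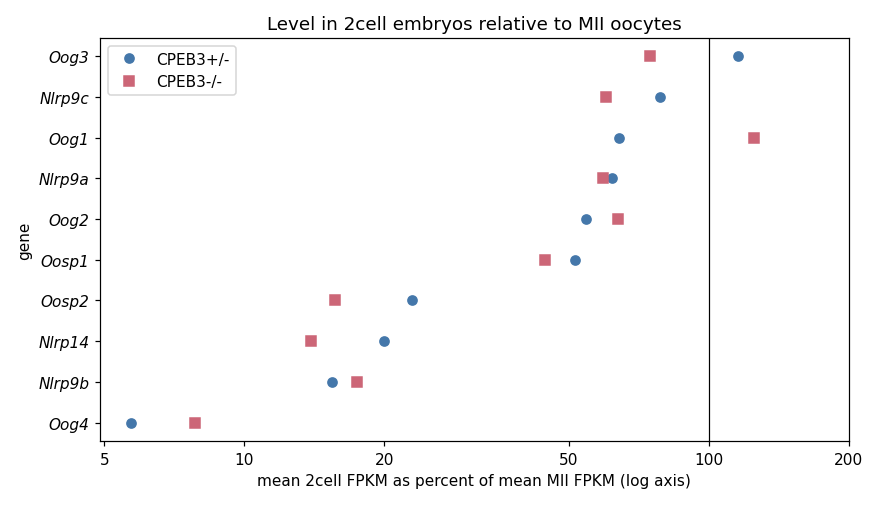
Mean FPKM of each gene in 2cell embryos as a percent of its mean in MII oocytes (horizontal axis, log scale), for libraries labelled CPEB3+/- (circles) and CPEB3-/- (squares); the line marks 100%. *Oog4* lies at 5.71 and 7.84%, *Oog3* at 115 and 74.8%, and *Oog1* at 64.1 and 125%, although the log2 difference of *Oog1* in CPEB3-/- changed sign with the scaling.

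The interaction of stage and genotype asks whether the genotype difference itself changed between the stages. None of the 10 genes passed (0 of 10), where 8.05% of all genes tested had an adjusted p under 0.05. Of those, 46.8% were positive, and 65.9% when scaled to the column sum. *Oog1* came nearest, with the fall in the libraries labelled CPEB3-/- smaller at the 2cell stage by 1.04 on the log2 scale (SE 0.320, limma adjusted p = 0.0524). With an unadjusted limma p of 0.00434 it was the only member at an unadjusted p under 0.05. The interactions of the genes that share its sequence were 0.44 for *Gm2042*, -0.30 for *Gm10436* and 0.25 for *Gm13023* (limma adjusted p = 0.377, 0.640 and 0.722). The adjusted p of *Oog1* was between 0.0249 and 0.106 with single libraries left out, and under 0.05 in 4 of those 19 fits. Under 7 other settings it lay between 0.0184 and 0.0996 and passed in 5, among them quantile scaling and scaling to the column sum. *Oog3* differed by -0.48 (interval -1.29 to 0.33) and *Oog4* by 0.54 (interval -0.11 to 1.20).

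The order of the genes by FPKM, which is per length, was the same at the top of every group. *Oog3* came first and *Oosp1* second, and the lowest *Oog3* library was above the highest *Oosp1* library in all 4 groups. By its mean, *Oog3* stood above 99.8 to 99.96% of all genes in these groups. In MII oocytes labelled CPEB3+/-, *Oog1*, *Oog4* and *Nlrp14* followed at 60.7, 52.7 and 51.9 FPKM and overlapped each other. *Oog2* (17.7 FPKM) stood apart below them, *Oosp2*, *Nlrp9a* and *Nlrp9c* (9.79, 7.13 and 6.75 FPKM) overlapped by neighbours, and *Nlrp9b* (4.65 FPKM) was last. In MII oocytes labelled CPEB3-/- *Oog1* (24.0 FPKM) came below *Nlrp14* (43.2 FPKM) and *Oog4* (38.3 FPKM), and *Oog2* (8.17 FPKM) below *Oosp2* (9.99 FPKM). Only *Oog3* from *Oosp1* and *Oog1* from *Oosp2* were separate neighbours there. In 2cell embryos *Oog4*, at 3.01 FPKM in both genotypes, dropped to the level of *Nlrp9a*, and *Nlrp9b* was last at 0.720 and 0.770 FPKM.

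Reads of near-identical genes can be divided among them in counting, so the sequence each gene shares was examined. The coding sequences of *Oog1* to *Oog4* are 74.1 to 81.5% identical by pair, those of *Nlrp9a* to *Nlrp9c* 82.3 to 87.5%, and those of *Oosp1* and *Oosp2* 59.2%. For 7 of the 10 genes no window of 150 bases, the length of a read, was found in another gene. Of the windows of *Oog1*, however, 88.4% are found unchanged in transcripts of *Gm2042*, *Gm10436* or *Gm13023*, genes on chromosomes 12, 12 and 4. *Oog2* shares 14.1% with *Gm13084* on chromosome 4 and *Oog3* 8.16% with *Gm4350*, a processed pseudogene on chromosome 14. With windows of 75 bases the shares were 94.0% for *Oog1*, 31.0% for *Oog2* and 13.6% for *Oog3*, and *Nlrp9a*, *Nlrp9b* and *Nlrp9c* shared 2.21, 3.09 and 1.56%. The values of *Oog1* are thus uncertain as values of that gene alone.

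The genes that share sequence with *Oog1* were also lower in MII oocytes labelled CPEB3-/-. *Gm2042* went from 97.7 ± 16.3 FPKM to 55.1 ± 10.7 FPKM (log2 -0.93, limma adjusted p = 0.0105), *Gm10436* from 58.2 ± 10.9 FPKM to 34.2 ± 4.41 FPKM (-0.85, 0.00982), and *Gm13023* from 122 ± 24.9 FPKM to 73.2 ± 17.0 FPKM (-0.84, 0.0263). *Oog1* and the 3 together ranged from 259 to 421 FPKM in MII libraries labelled CPEB3+/- and from 138 to 222 FPKM in those labelled CPEB3-/-, without overlap. In 2cell embryos the sums ranged from 256 to 458 and from 147 to 235 FPKM, also without overlap. At that stage *Gm10436* was called lower (-1.17, limma adjusted p = 0.0165) and *Gm2042* (-0.51, 0.0938) and *Gm13023* (-0.62, 0.105) were not. *Gm10436* was the one gene of the set called higher in 2cell embryos than in MII oocytes, with 158 ± 49.0 FPKM in CPEB3+/- (1.18) and 71.7 ± 19.5 FPKM in CPEB3-/- (0.88).

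The partners of *Oog2* and *Oog3* were lower too. *Gm13084* was called lower in MII oocytes (-0.90) and 2cell embryos (-0.86) labelled CPEB3-/-, and so was *Gm4350*, with -1.32 (limma adjusted p = 0.0479) and -1.83 (0.00115). *Gm4350* was at a much lower level than *Oog3*, for example 27.1 ± 5.62 FPKM beside 279 ± 48.6 FPKM in 2cell libraries labelled CPEB3-/-. Between stages *Gm13084* fell further than *Oog2*, by 2.21 on the log2 scale in CPEB3+/- where *Oog2* fell by 1.10.

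**Figure D4:**
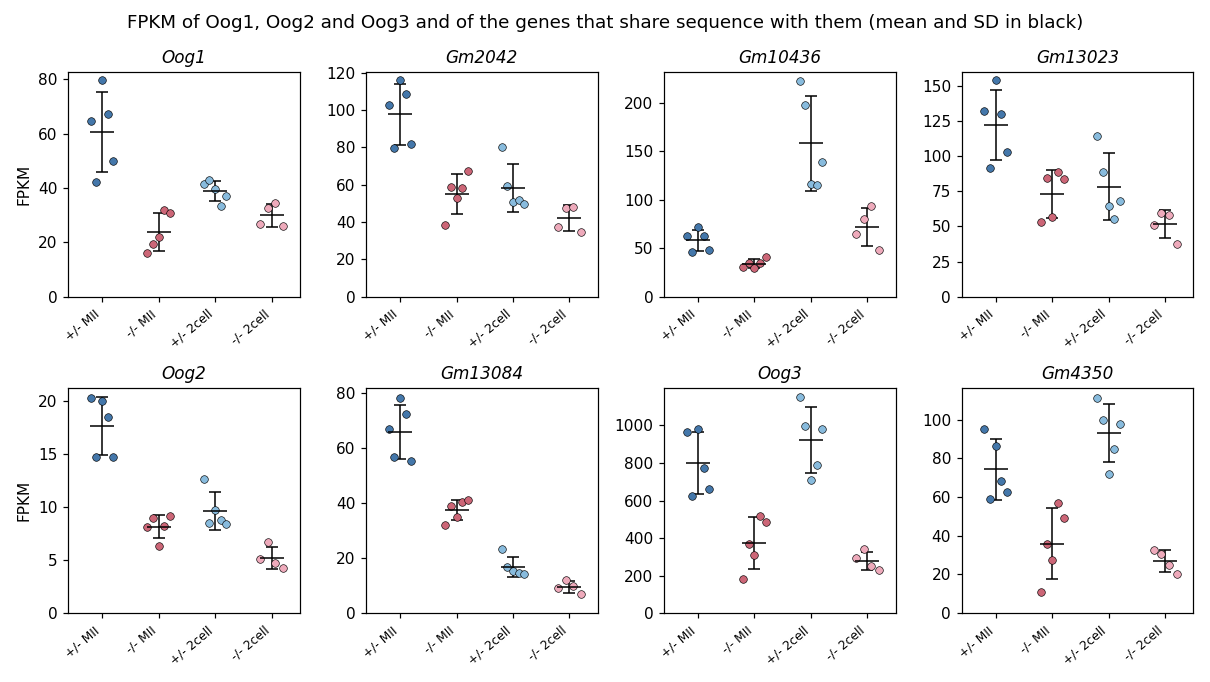
FPKM (vertical axes, each from 0) of *Oog1*, *Oog2* and *Oog3* and of the genes that share 150-base stretches with them, in each library of the 4 groups, with mean and SD in black. All 8 genes are lower in MII libraries labelled CPEB3-/-, and *Gm10436* is higher in 2cell embryos than in MII oocytes while *Oog1*, *Gm2042* and *Gm13023* in CPEB3+/- are lower.

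Within a group of libraries, 9 of the 10 genes varied together. Pairs of other genes were not examined in this way, so this is not shown to be particular to the 9. After each group's mean was taken off, the Pearson r over the 19 libraries was between 0.50 and 0.92 for the 36 pairs without *Oosp2* (median 0.78). It was between -0.11 and 0.36 for the 9 pairs with *Oosp2*. The points share their libraries, and base composition is alike, with a GC content of 39.0 to 43.3% in the 10 transcripts beside a median of 48.5% over all genes. MII library A labelled CPEB3-/- was the lowest of its group for 8 of 10 genes and MII library B labelled CPEB3+/- for 8 of 10, while 2cell library D labelled CPEB3-/- was the lowest for 9 of 10. MII library C labelled CPEB3+/- was the highest for 8 of 10. The share of all genes that were lowest or highest in these libraries was not counted.

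**Figure D5:**
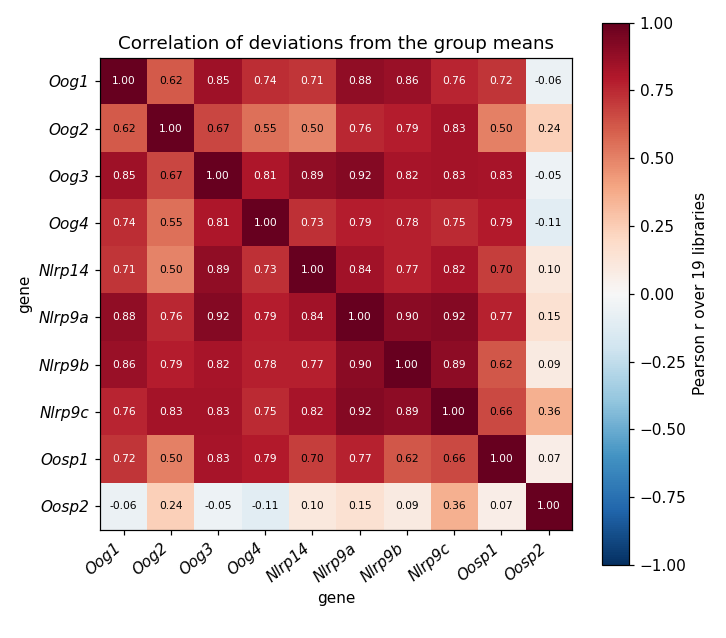
Pearson r of log2 values over 19 libraries for each pair of the 10 genes (both axes), after the mean of each group of libraries was subtracted; the colour scale runs from -1 to 1. The row of *Oosp2* lies between -0.11 and 0.36, all other pairs between 0.497 and 0.918.

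The gene outside the 10 with the most similar profile, by Pearson r over the 19 libraries after each stage's mean was taken off and among 9335 genes, was a gene that shares sequence with it for *Oog3* (*Gm4350*, r = 0.99) and *Oog2* (*Gm13084*, 0.96). It was a family member for *Nlrp9b* (*Nlrp4f*, 0.93). For *Oog1* it was *Tmem209* (0.96), for *Oog4* *5730480H06Rik* (0.92), for *Nlrp9a* *Nuf2* (0.97), for *Nlrp9c* *B020011L13Rik* (0.97) and for *Nlrp14* *Zfp735* (0.93). For *Oosp1* it was *Gm7879* (0.98) and for *Oosp2* *Rims1* (0.85).

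Related genes outside the 10 were counted in the same way. Of 8 other Nlrp genes tested in MII oocytes, 1 was called lower in libraries labelled CPEB3-/- and 0 higher, *Nlrp4b* with -0.96 (limma adjusted p = 0.0242), and the median of the list was -0.30. In 2cell embryos 1 of 10 was lower, *Nlrp4g* with -1.65 (0.0402), and the median was 0.27. Of 11 other PRAME family genes tested in MII oocytes 5 were called lower and 1 higher, with a median of -0.61. *AA792892* (-1.36, limma adjusted p = 0.00108) and *E330014E10Rik* (-1.14, 0.00108) moved most, and *Pramef12* was the higher one (0.62). In 2cell embryos 3 of 20 were lower and 3 higher, with *Pramel6* (-1.72) and *Pramef12* (1.32) the largest in each direction. The median of the 20 was -0.29.

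Of 10 other Oosp, zona and egg surface genes tested in MII oocytes, 1 was called lower, *Oosp3* (-0.97, limma adjusted p = 0.0325). It is a further oocyte-secreted protein gene, with 42.8 ± 8.32 FPKM in the libraries labelled CPEB3+/- against 24.3 ± 7.89 FPKM in the others. In 2cell embryos 1 of 9 was lower, *Cd9* (-1.84), the egg membrane protein used in sperm fusion. The medians of this list were 0.07 and 0.00. The genes of the subcortical maternal complex, which holds other oocyte Nlrp proteins such as that of *Nlrp5*, showed 0 of 8 lower at both stages. There, 1 of 8 was higher in MII oocytes, *Khdc3* (0.63, limma adjusted p = 0.0201), and 1 of 8 in 2cell embryos, *Ooep* (0.90, 0.00178), with medians of 0.22 and 0.33.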

How the data were processed

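RNA-seq libraries of MII oocytes and 2cell embryos were analysed from the single deposited gene table. Per the study's methods, the authors made libraries from 5 cells each with a Smart-seq v4 kit. Per the submitters' processing notes, they trimmed reads with Trim Galore 0.4.1 and aligned them with HISAT2 2.0.5 to GRCm38. The values deposited are FPKM per gene, although the table is named as raw counts, so a test for normalised values was used.

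Groups came from the labels. FPKM was scaled by trimmed means (30% of ratios and 5% of levels trimmed from each end), transformed as log2(FPKM + 0.1) and tested with limma 3.58.1 (R 4.3.3, trend) over all genes that reached 0.1 FPKM in 5 libraries (MII oocytes) or 4 libraries (2cell embryos, and all 19 libraries together for stages and the interaction). P-values were adjusted by Benjamini-Hochberg, and a call needed an adjusted p under 0.05 and a 1.5-fold change (the interaction, the p alone). Intervals are 95% intervals of that fit. Depth was estimated from the spacing of low values, of which 40.8 to 45.6% lay within 0.05 of whole fragments, so fragment numbers are approximate. Scripts were tested on simulated data.

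Positions came from GENCODE vM21 and promoters from RefSeq. Outside the 10 genes and their copies, at most the 2 genes with the largest change among those called were to be named per list and stage; smaller changes named beside them, and the marker genes, were picked with their values in view. The members and lists were chosen with earlier results of these data known. Alternatives were other scalings, pseudocounts, filters, a replicate block, GC correction and leaving out each library. A permutation test planned for sums over families is not given, and those sums are values only. Python 3.11.15 with numpy 2.4.6, pandas 2.3.3 and matplotlib 3.10.9 was used.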

Additional observations from a re-analysis of the deposited data

Results flagged for a closer look

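Of 40 sets of values (10 genes in 4 groups), 1 held a library far from the others. *Nlrp9b* in 2cell library A labelled CPEB3+/- was measured at 0.967 FPKM, while the other 4 libraries of the group lay between 0.639 and 0.670 FPKM. The gap was 0.906 of the range, above the critical value of 0.71 for 5 samples. Chance alone gives about 1 such set in 20.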

How the results depend on the processing

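Over 1189 values of the 10 genes under alternatives, 1148 stayed on their side of the threshold, 16 lost a call, 25 gained one and 0 called values changed sign. Uncalled differences that changed sign with the scaling were those of *Oosp2* and *Nlrp9b* in MII oocytes, *Oog4* and *Nlrp9b* in 2cell embryos, *Oog3* between stages in CPEB3+/- and *Oog1* in CPEB3-/-, and the interactions of *Nlrp9a* and *Oosp1*. Scaling to the column sum moved the median of all genes by 0.15 in MII oocytes and 0.26 in 2cell embryos. Of all genes, a pseudocount of 1 left 481 called in MII oocytes, 1162 in 2cell embryos, and 5282 and 5270 between stages in CPEB3+/- and CPEB3-/-. A filter of 1 FPKM left 774, 1496, 5289 and 5135 in the same order, and 790 for the interaction. Without a fold threshold 2247 were called in MII oocytes. Compared with these, the calls made were 1355, 2537, 10488, 10286 and 1270. With 1 library left out the counts ran from 954 to 1542 in MII oocytes, 1831 to 2563 in 2cell embryos, 10172 to 10729 and 10085 to 10465 between stages, and 936 to 1553 for the interaction. The causes were not tested.

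The letters of the libraries were also tried as a replicate block. Same-letter libraries deviated together with r of -0.175 to 0.120 in MII oocytes (over 0.1 in 1 of 5) and -0.069 to 0.036 in 2cell embryos (0 of 4), so they share only a letter. With the replicate block 824 genes were called in MII oocytes, 369 in 2cell embryos and 842 for the interaction. *Oog3* in MII oocytes (limma adjusted p = 0.0667) and *Nlrp9c* (0.0718), *Oog2* (0.0651) and *Oosp1* (0.128) in 2cell embryos were not called.

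Depth limits *Oosp2* and *Nlrp9b* in 2cell embryos most, where few fragments stand behind each value.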

Other observations

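Between stages, the other oocyte lists also moved. In libraries labelled CPEB3+/-, 8 of 8 genes of the subcortical maternal complex were called lower in 2cell embryos (median -1.95), as were 7 of 10 other Nlrp genes, while 2 were higher (median -1.86). Of 20 other PRAME family genes 10 were called higher and 7 lower (median 0.63). Of all 15786 genes tested, 6036 were called higher and 4452 lower, with a median of 0.21. In libraries labelled CPEB3-/- the same lists gave 8 of 8 lower, 6 of 10 lower with 2 higher, and 3 of 20 lower with 11 higher, where 6026 of all genes were called higher and 4260 lower.

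The summed FPKM of the 8 genes of the subcortical maternal complex was 771 to 1014 in MII libraries labelled CPEB3+/- and 1156 to 1423 in those labelled CPEB3-/-, without overlap. Most of it was *Zbed3*, at 573 ± 76.2 and 865 ± 73.2 FPKM (SD, n = 5 each), whose difference of 0.50 was under 1.5-fold. *Nlrp2* of the same list was lower without overlap, at 1.01 ± 0.0753 and 0.715 ± 0.147 FPKM.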
